A study of Mus musculus with 38 samples.

Results

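Solute carrier transporters (gene symbols starting with Slc and a family number) were examined in spleen cells of DBA/2 mice after cyclophosphamide, an alkylating drug that damages DNA and kills dividing cells. Every probe that names a single gene of this prefix was taken as a member, with the iron exporter gene left out, which gave 182 probes for 175 genes among the 13443 probes on the array. Of these, 109 probes for 105 genes were tested, those measured in 3 or more mice of all 4 groups, among 8319 tested probes in all. The other 73 probes, among them all the probes of 70 genes, had values in too few mice to be tested. The groups compared were mice taken 1 day (n = 4), 2 days (n = 5) and 5 days (n = 5) after cyclophosphamide at 83 mg/kg, and untreated mice (n = 5). All were DBA/2 mice and no other genotype, treatment or age is given in the labels. Each value is the log ratio of a mouse's spleen RNA to a common pool of bone marrow RNA, averaged over 2 technical measurements of that mouse. The base of the logarithm is not stated in the sources and was taken as 2. On that base a value of 1 means a signal 2-fold that of the marrow pool, and a difference of 1 between groups a 2-fold change. The marrow pool is labelled as untreated, yet its treatment field names cyclophosphamide. Since every measurement used it, it cancels between groups.

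Solute carriers are membrane proteins that move small molecules across the cell surface or the membranes of organelles, without using ATP directly, along a gradient or in exchange for another solute. They supply sugars, amino acids, nucleosides, vitamins and metals to growing cells and carry metabolites in and out of mitochondria, the Golgi and lysosomes. The spleen holds lymphocytes and macrophages, and in mice also red cell precursors, which depend on iron and glycine uptake, while macrophages take up and recycle amino acids, nucleosides and metals from cells they engulf. The 3 genes that share the prefix without being carriers (Slc9a3r1, Slc9a3r2 and Slc4a1ap, 4 probes, 2 of them tested) encode binding partners of carriers. Their 2 tested probes are counted among the 109 and form a class of their own in the grouping by substrate. That grouping otherwise goes by family number, so a class can hold members that carry another substrate than the one it is named for.

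The label of the tissue was checked in untreated mice, where the mean log2 ratio to marrow was 0.311 ± 0.186 over 4 T cell marker probes, 0.411 ± 0.267 over 6 B cell marker probes and -1.91 ± 0.41 over 6 probes of neutrophil and early granule genes (SD over mice, n = 5), so lymphocyte genes were above the marrow pool and granulocyte genes below it. The 2 technical measurements of a mouse correlated at 0.581 to 0.962, and below 0.7 in 3 mice (untreated mice 2 and 4 and day 5 mouse 5). Day 2 arrays had the widest spread of log2 ratios, with SDs of 0.517 to 0.692, against 0.413 to 0.533 in untreated mice. For the solute carrier probes the median standard error of a difference was 0.165 to 0.173. In a whole spleen, fewer cells of a type and less RNA per cell cannot be told apart.

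Few solute carrier genes changed, and most of the changes from untreated mice were on day 2. Compared with untreated mice, 9 of the 109 probes (8.26%) passed an adjusted p of 0.05 (limma) on day 2, against a background of 8.31% of all tested probes, with 4 higher (background 3.31%) and 5 lower (background 5%). On day 1 there were 2, both higher (1.83%, against 2.33% of all tested probes, 0.938% higher and 1.39% lower). On day 5 none passed (background 0.0721%), while 4 solute carrier probes had an unadjusted p below 0.05 (3.67%, against 5.22% of all tested probes). Between day 5 and day 2, 5 passed (4.59%, background 5.3%), 4 higher and 1 lower on day 5 (background 3.8% and 1.5%). Between day 2 and day 1 none passed (background 0.0601%), and 8 had an unadjusted p below 0.05 (7.34%, against 6.02% of all tested probes). The F-test over the 4 conditions called 6 (5.5%, background 6%). These shares are near those of all probes. The median change of the 109 probes was 0.02 on day 2, against 0.0070 over all tested probes, and 13.8% of them moved by more than 0.5 in either direction, against 13.9% of all tested probes.

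**Figure D1:**
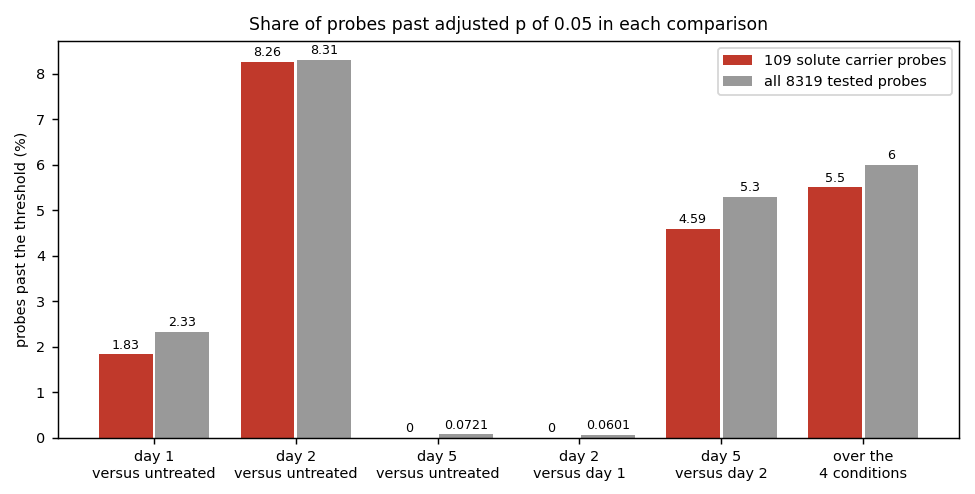
Share of probes past an adjusted p of 0.05 (limma, vertical axis in percent) in each of the 5 comparisons and in the F-test over the 4 conditions, for the 109 solute carrier probes (red bars) and for all 8319 tested probes (grey bars). The red and grey bars are close in every comparison, with the highest pair on day 2 at 8.26% and 8.31%.

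The calls depend on the scaling and on a few mice. With quantile normalization, or with the arrays brought to equal spread, 2 solute carrier probes passed on day 2 in place of 9, 0 of them higher and 2 lower, and these were Slc22a12 and Slc35b4. Without the 3 mice of low technical correlation 3 passed, all lower (Slc22a12, Slc35b4 and Slc39a11). On day 1 none passed with equal spread or without the 3 mice. Between day 5 and day 2 the calls of Slc22a12 and Slc39a11 held under each of these settings.

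The falls on day 2 with the smallest adjusted p were those of Slc39a11 (probe 036G01), Slc22a12 and Slc35b4, and these 3 probes were higher on day 5 than on day 2. The other tested Slc39a11 probe passed in neither comparison. Their promoters are shown first, from 250 bases before to 50 bases after the start listed by RefSeq (build GRCm38.p6, minus strand, 5′ to 3′), because these 3 probes changed in the same direction in both comparisons, followed by that of Slc7a7, which rose on day 1. They lie at chr19:6543021-6543320 (Slc22a12), chr6:34177005-34177304 (Slc35b4), chr11:113565766-113566065 (Slc39a11, one of 2 listed starts) and chr14:54417895-54418194 (Slc7a7, one of 5 listed starts). Capitals mark matches to the motifs searched. Where several starts were listed, the one with the most matches to these motifs is printed. A match was present at 1 of the 2 starts of Slc39a11 and at 3 of the 5 of Slc7a7.
Slc22a12: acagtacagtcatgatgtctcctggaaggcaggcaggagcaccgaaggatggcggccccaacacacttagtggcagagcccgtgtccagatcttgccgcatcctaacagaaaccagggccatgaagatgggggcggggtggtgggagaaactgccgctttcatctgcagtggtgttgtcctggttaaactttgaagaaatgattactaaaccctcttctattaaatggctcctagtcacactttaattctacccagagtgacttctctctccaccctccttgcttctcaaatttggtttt
Slc35b4: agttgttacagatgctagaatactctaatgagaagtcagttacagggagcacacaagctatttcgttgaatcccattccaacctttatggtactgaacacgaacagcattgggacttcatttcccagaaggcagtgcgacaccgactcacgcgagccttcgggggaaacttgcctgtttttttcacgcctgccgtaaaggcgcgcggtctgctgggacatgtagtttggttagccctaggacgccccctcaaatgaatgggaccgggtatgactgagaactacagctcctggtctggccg
Slc39a11: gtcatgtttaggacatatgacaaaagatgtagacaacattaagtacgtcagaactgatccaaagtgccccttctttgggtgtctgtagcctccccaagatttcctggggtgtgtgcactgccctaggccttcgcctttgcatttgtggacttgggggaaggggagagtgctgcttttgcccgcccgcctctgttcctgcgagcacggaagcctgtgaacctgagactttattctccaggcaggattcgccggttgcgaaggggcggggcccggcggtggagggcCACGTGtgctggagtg
Slc7a7: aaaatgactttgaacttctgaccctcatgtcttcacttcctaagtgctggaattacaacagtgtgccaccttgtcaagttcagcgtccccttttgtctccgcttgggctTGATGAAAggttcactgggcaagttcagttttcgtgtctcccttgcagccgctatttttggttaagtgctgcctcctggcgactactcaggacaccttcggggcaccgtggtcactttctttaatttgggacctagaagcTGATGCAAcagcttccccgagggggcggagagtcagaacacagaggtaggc
Each of 4 motifs was searched on both strands, and none contains another. CACGTG, the E-box of Myc and related factors, occurred in 16% of the 106 promoters of tested solute carrier genes and in 7.15% of all 32851 promoters in the table, 78 of 105 genes having an entry. Among the 17 promoters of 11 changed genes it was found in those of Slc39a11 and Slc25a36. The GATA factor motif AGATAA was in 5.66% of the promoters of solute carrier genes and in 11.2% of all promoters. TGATGNAA, bound by ATF4 with C/EBP in the response to amino acid shortage, was in 3.77% and 3.97%. Both were found in promoters of Slc7a7, and the one printed holds TGATGNAA at 2 places, as TGATGAAA and as TGATGCAA. GAGGAAGT, bound by PU.1, was in 0.943% and 3.2%, and in none of the 17. The windows of Slc22a12 and Slc35b4 held none of these letters, so the 3 genes shared no match among them.

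Of the carriers of organic ions (4 of 10 probes tested), Slc22a12 was the one that changed. It encodes URAT1, which exchanges urate for organic anions and is best known for taking urate back from the kidney tubule. Its log2 ratios on day 2 were -0.39, -1.13, -1.19, -1.56 and -1.23, against 0.024, 0.16, 0.0035, 0.048 and -0.26 in untreated mice. No day 2 mouse reached the untreated range, and day 2 mouse 1 was the nearest to it. The level on day 2 fell by 1.09 ± 0.18 (SE), a fold of 2.14, with adjusted p = 0.000553. The day 1 mice, at -0.26, -0.88, -0.20 and -0.47, overlapped the untreated range (change -0.45 ± 0.20, adjusted p = 0.309). On day 5 the values were -0.10, 0.19, 0.44, -0.17 and -0.031, all above the day 2 mice, a difference of 1.17 ± 0.18 from day 2 (2.25-fold, adjusted p = 0.000442) and of 0.07 ± 0.18 from untreated mice. Both calls held in all 15 other settings tried and in each of 19 fits that left out 1 mouse. Only a mouse of the 2 groups compared can move the change itself. Leaving out any other mouse alters only its standard error and p-value, for this and every other probe. The day 5 to day 2 and the day 2 to untreated comparisons share the 5 day 2 mice, here and for the genes below.

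Another urate carrier, Slc2a9, which also carries hexoses, was the furthest below the marrow pool of all tested solute carrier probes in untreated mice, at -1.33 ± 0.35 (SD, n = 5). It was at -1.42, -1.15, -0.80, -0.87 and -0.54 on day 5, against -2.20, -1.60, -1.73, -1.46 and -1.69 on day 2. The ranges did not overlap, and the difference was 0.78 ± 0.18 (1.72-fold, adjusted p = 0.0117). Against untreated mice neither day passed the test, with changes of -0.40 ± 0.18 on day 2 (adjusted p = 0.199) and 0.38 ± 0.18 on day 5 (adjusted p = 0.923). The difference between day 5 and day 2 shrank to 0.13 with quantile normalization and to 0.43 with equal spread and missed the threshold in both, while the call held in all 19 fits without 1 mouse. The other 5 tested probes of the families classed as sugar and polyol carriers, Slc5a5 among them, did not pass in any comparison. Among them was Slc2a1, which encodes the glucose carrier GLUT1, with 0.78 ± 0.31 on day 2 and 0.40 ± 0.17 in untreated mice (SD, n = 5 each, adjusted p = 0.346).

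Of 12 tested probes for carriers of nucleosides and nucleotide sugars, Slc35b4 changed. Slc35b4 brings UDP-sugars into the Golgi for the building of glycans. It measured -0.91, -0.96, -0.76, -1.38 and -0.71 on day 2, against -0.33, -0.18, 0.10, -0.05 and -0.14 in untreated mice. The groups did not overlap, and the level fell by 0.82 ± 0.14 (1.77-fold, adjusted p = 0.00081). Of the 4 day 1 mice 3 measured -0.69, -0.73 and -0.74, and day 1 mouse 3 measured -0.28, within the untreated range (change -0.49 ± 0.15, adjusted p = 0.103). On day 5 it was higher than on day 2 by 0.66 ± 0.14 (adjusted p = 0.00817), with values of -0.021, -0.54, -0.17, -0.43 and -0.28. That difference missed the threshold with quantile normalization (0.49, adjusted p = 0.142) and equal spread (0.54, adjusted p = 0.068), while the fall on day 2 passed in all 15 other settings and all 19 fits without 1 mouse.

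The equilibrative nucleoside carrier Slc29a1 (ENT1), which red cell precursors and lymphocytes use to take up nucleosides, measured 0.64 ± 0.22 on day 2 and 0.31 ± 0.18 in untreated mice (SD, n = 5 each) and missed the threshold (change 0.33 ± 0.15, adjusted p = 0.205). Slc29a3, a lysosomal nucleoside carrier of macrophages, changed by 0.04 ± 0.14 on day 2 (adjusted p = 0.899).

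Of 10 tested probes of metal carriers, 1 probe of Slc39a11 changed. It was lower on day 2 than in untreated mice (background 5%) and higher on day 5 than on day 2 (background 3.8%). Slc39a11 encodes ZIP11, a zinc importer. With probe 036G01 it measured -1.33, -1.28, -1.20, -1.28 and -1.27 on day 2, against -0.59, -0.77, -0.69, -0.57 and -0.71 in untreated mice. The day 2 mice had an SD of 0.05 and lay apart from all untreated mice, and the level fell by 0.61 ± 0.10 (1.52-fold, adjusted p = 0.000448). Day 1 mice lay between the 2 groups, at -0.88, -0.78, -0.98 and -1.08 (change -0.26 ± 0.11, adjusted p = 0.24). On day 5 the values were -0.52, -0.33, -0.41, -0.34 and -0.21, above every day 2 mouse by a difference of 0.91 ± 0.10 (1.88-fold, adjusted p = 7.11e-06), and above every untreated mouse without passing the test (0.30 ± 0.10, adjusted p = 0.871). The difference between day 5 and day 2 passed in all 15 other settings and all 19 fits without 1 mouse. The fall on day 2 shrank with quantile normalization (-0.31, adjusted p = 0.217) and with equal spread (-0.33, adjusted p = 0.185), and passed in the other 13 settings.

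The other Slc39a11 probe, 019P01, did not show this. It measured -0.33, -0.76, -1.06, -0.92 and -0.87 on day 2, against -0.63, -0.49, -0.12, -0.69 and -0.79 in untreated mice. The groups overlapped, with a change of -0.24 ± 0.16 (adjusted p = 0.398) and a difference of 0.20 ± 0.16 between day 5 and day 2 (adjusted p = 0.555). Which transcripts each probe detects is not given in the files, and why they differ was not tested. Of the other 8 metal carrier probes none passed, including Slc11a2 (DMT1, the iron importer of red cell precursors), which was measured in 3 or 4 mice of each group and differed by 0.14 ± 0.19 between day 2 and untreated mice (adjusted p = 0.738).

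**Figure D2:**
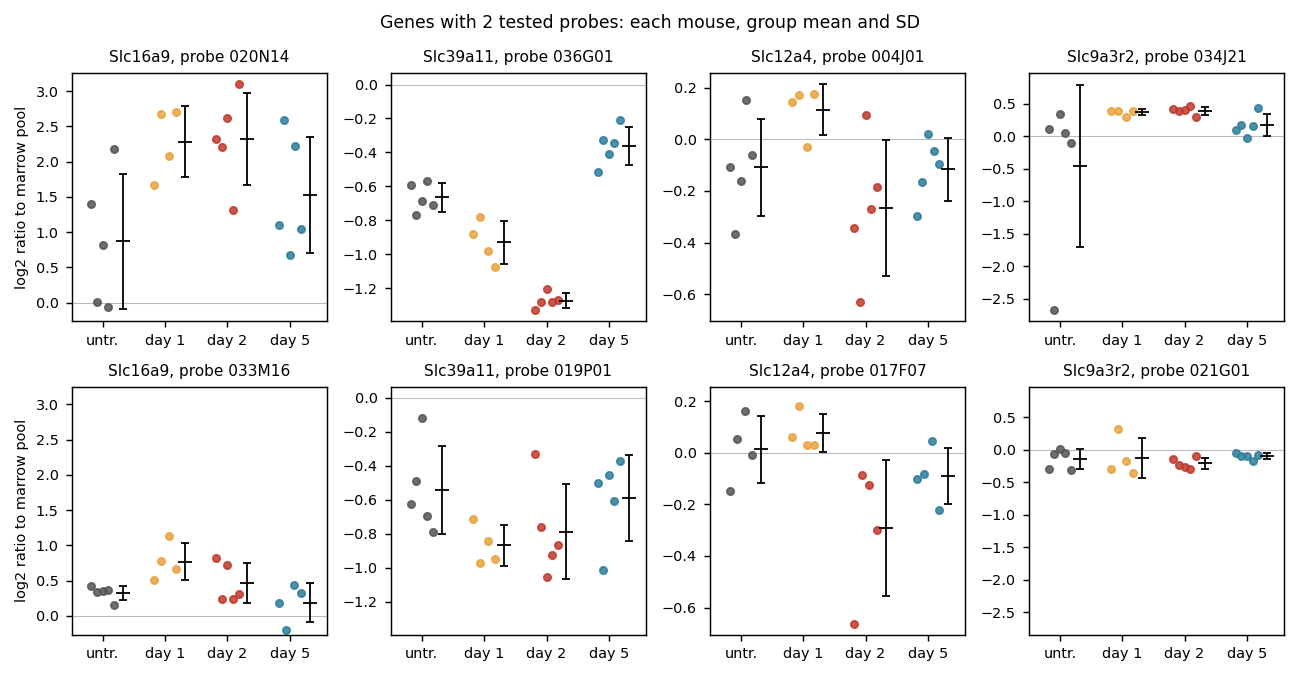
Log2 ratio to the marrow pool (vertical axes) of each mouse in the 4 conditions (horizontal axes) for the 4 genes with 2 tested probes, 1 column per gene and 1 panel per probe on a shared scale; crosses and bars give the mean and SD. For Slc39a11 the upper probe falls to -1.27 on day 2 with an SD of 0.05 while the lower one has a mean of -0.79 with an SD of 0.28, and for Slc16a9 the upper probe spans a wider range than the lower one; 1 untreated mouse at -2.68 sets the spread of Slc9a3r2.

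Amino acid, peptide and neurotransmitter carriers were the largest group, with 25 tested probes of 34. Compared with untreated mice, 1 was higher on day 1 (background 0.938%), and 1 was higher and 1 lower on day 2 (background 3.31% and 5%). Between day 5 and day 2, 1 was lower on day 5 (background 1.5%). Slc7a7 encodes y+LAT1, which exchanges cationic amino acids such as arginine for neutral ones, is prominent in macrophages, and works as a pair with the Slc3a2 heavy chain. It rose on day 1, with 1.03, 1.04, 1.30 and 1.27 on day 1, against 0.56, -0.91, 0.10, 0.44 and 0.54 in untreated mice. No day 1 mouse overlapped an untreated mouse, and the change was 1.01 ± 0.26 (2.02-fold, adjusted p = 0.0362). Untreated mouse 2, one of the 3 mice of low technical correlation, was far below the others, and without these 3 mice the change was 0.76 (adjusted p = 0.134). It also missed the threshold with equal spread (0.97, adjusted p = 0.0745) with the second technical measurement alone, with the mouse as a random effect, with a replicate block (1.05, adjusted p = 0.0542) and with only the 2 groups fitted. The call was also lost in 6 of 19 fits that left out 1 mouse (any of the 4 day 1 mice, or untreated mouse 2 or 3), with changes of 0.75 to 1.12. The fits that left out a day 2 or day 5 mouse could not move this change. Day 2 mice, at 0.64 to 1.09, were also all above the untreated mice without passing (0.71 ± 0.24, adjusted p = 0.0753). Slc3a2 had 0.37 ± 0.25 on day 2 (SD, n = 4) and -0.08 ± 0.26 in untreated mice (SD, n = 3) and did not pass (adjusted p = 0.259).

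Slc7a5 encodes LAT1, the other well-known partner of Slc3a2, which brings leucine and other large neutral amino acids into activated and dividing cells. It fell on day 2, with -1.27, -0.65, -1.63, -0.41 and -1.52 on day 2, against -0.35, -0.24, -0.72, -0.38 and -0.26 in untreated mice. Day 2 mice 1, 3 and 5 were below all untreated mice and the other 2 were within their range, which gave a change of -0.71 ± 0.21 (1.63-fold, adjusted p = 0.0388). On day 5 the mean was -0.39 ± 0.25, against -1.10 ± 0.54 on day 2 (SD, n = 5 each, adjusted p = 0.0509). The fall was smaller with quantile normalization (-0.42, adjusted p = 0.251) and equal spread (-0.51, adjusted p = 0.237), and missed the threshold without the 3 mice of low technical correlation (-0.65, adjusted p = 0.188), with the second technical measurement alone, with a replicate block (adjusted p = 0.0565) and with only the 2 groups fitted. It was also lost in 7 of 19 fits that left out 1 mouse (day 2 mouse 1, 3 or 5, or untreated mouse 1, 2, 4 or 5), with changes of -0.88 to -0.57.

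Slc1a3, a sodium-driven glutamate and aspartate carrier best known from glia (GLAST), rose on day 2. Its values were 0.79, 0.58, 0.77, 0.50 and 0.86 on day 2, against 0.19, 0.23, 0.12, 0.32 and 0.34 in untreated mice. The groups did not overlap, and the change was 0.46 ± 0.12 (1.37-fold, adjusted p = 0.0196). On day 5 it measured 0.21, 0.34, 0.20, 0.06 and 0.28, below every day 2 mouse (difference from day 2 of -0.48 ± 0.12, adjusted p = 0.0211). The rise missed the threshold with quantile normalization (0.29), equal spread (0.34), the second technical measurement alone (0.42) and without the 3 mice of low technical correlation (0.48, adjusted p = 0.0684). The day 5 difference missed it with the 2 scalings and passed without the 3 mice (adjusted p = 0.0445). Leaving out day 2 mouse 5 ended both calls and day 5 mouse 4 that of day 5, with changes of 0.42 to 0.51 and -0.53 to -0.44 over the 19 fits without 1 mouse.

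Slc6a9 (GlyT1), which supplies glycine for heme synthesis in red cell precursors, varied widely on day 2. It measured -3.57, -2.06, -0.08 and -0.24 in the 4 day 2 mice with a value, against -0.07, -0.42, -0.52, -0.50 and -0.26 in untreated mice. Of the day 2 mice 2 were far below all untreated mice and 2 were within their range, so the change of -1.13 ± 0.50 did not pass (adjusted p = 0.197). The cystine and glutamate exchanger Slc7a11 and the cationic amino acid carriers Slc7a1 and Slc7a2 differed from untreated mice on day 2 by 0.09, 0.00065 and 0.03 and passed in no comparison.

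Of the mitochondrial carriers (14 of 23 probes tested), 1 rose and 1 fell on day 2 (background 3.31% higher and 5% lower). Slc25a36 carries pyrimidine nucleotides into mitochondria, where they serve the synthesis of mitochondrial DNA and RNA. It measured 0.41, 0.77, 0.22 and 0.56 in the 4 day 2 mice with a value, against -0.15, -0.07, -0.15, -0.69 and 0.12 in untreated mice. The groups did not overlap, and the change was 0.68 ± 0.18 (1.6-fold, adjusted p = 0.022). On day 5 the values of -0.31 to 0.09 were all below those of day 2 (difference -0.61 ± 0.18, adjusted p = 0.0535). The rise missed the threshold with quantile normalization (0.63, adjusted p = 0.0615), equal spread (0.57, adjusted p = 0.0599), the first technical measurement alone (0.72, adjusted p = 0.0524), only the 2 groups fitted (adjusted p = 0.0537) and without the 3 mice of low technical correlation (0.55, adjusted p = 0.13), and without day 2 mouse 2, day 2 mouse 5 or untreated mouse 4 alone (changes of 0.55 to 0.77 over such fits).

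Slc25a39, needed for the import of glutathione into mitochondria, was measured in 3 or 4 mice a group. It had -0.42, -0.41 and -0.28 in 3 day 2 mice, against 0.049, 0.27, 0.23 and 0.22 in 4 untreated mice. The groups did not overlap, and it fell by 0.56 ± 0.15 (1.48-fold, adjusted p = 0.0305), a call lost with quantile normalization (-0.59, adjusted p = 0.0543), equal spread (-0.56, adjusted p = 0.053), without the 3 mice (-0.54, adjusted p = 0.0721), with a replicate block (-0.55, adjusted p = 0.124) and with only the 2 groups fitted (adjusted p = 0.0631). It was lost as well without any 1 of the 3 day 2 mice or without untreated mouse 2, 3 or 5, with changes of -0.61 to -0.54. Slc25a37 (mitoferrin-1), which imports iron into the mitochondria of red cell precursors, measured -0.67, -0.50, -1.46, -0.54 and -0.97 on day 2, against -0.44, -0.43, -0.28, 0.15 and -0.43 in untreated mice. No day 2 mouse overlapped an untreated mouse, and the change of -0.54 ± 0.21 did not pass (adjusted p = 0.132).

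**Figure D3:**
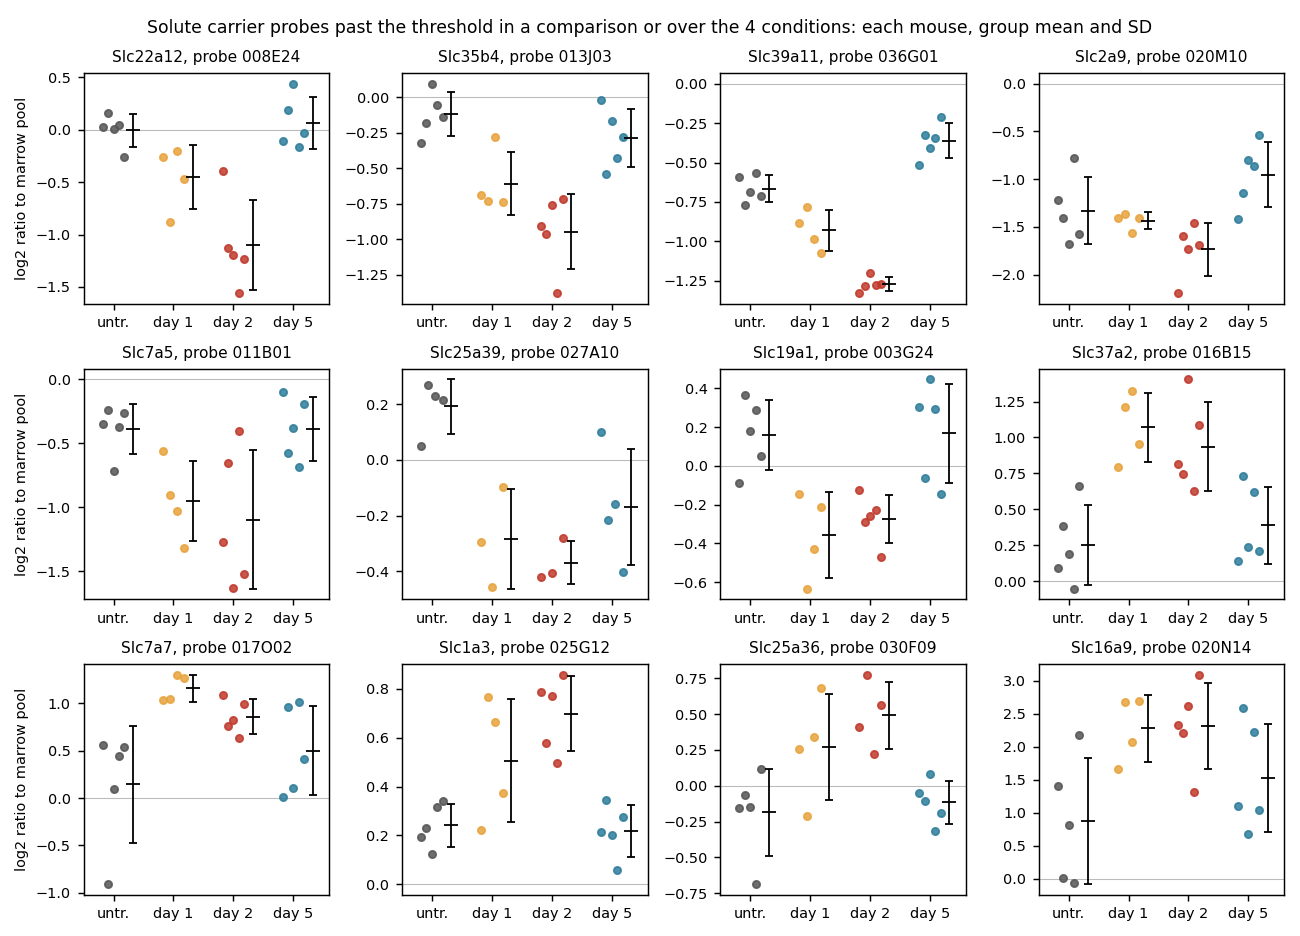
Log2 ratio to the marrow pool (vertical axes, a scale per gene) of each mouse, in untreated mice and on days 1, 2 and 5 (horizontal axes), for the 12 solute carrier probes that passed the test in a comparison or over the 4 conditions; crosses and bars give the mean and SD. In the first 7 panels the day 2 means are below the untreated means, and in the last 5 above them.

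Among the 6 tested carriers of phosphate and organic phosphates, Slc37a2 passed on 2 days. It encodes a sugar-phosphate and phosphate exchanger of the endoplasmic reticulum that is abundant in macrophages. On day 1 it measured 0.79, 1.21, 1.32 and 0.96, against 0.09, 0.38, 0.19, -0.05 and 0.66 in untreated mice. The groups did not overlap, and the rise was 0.82 ± 0.18 (1.76-fold, adjusted p = 0.0184). On day 2 it measured 0.81, 0.75, 1.41, 0.63 and 1.08, with day 2 mouse 4 just inside the untreated range, and was higher by 0.68 ± 0.17 (1.6-fold, adjusted p = 0.0162). On day 5 the mean was 0.39 ± 0.27 (SD, n = 5), a change from untreated mice of 0.13 ± 0.17 (adjusted p = 0.974). Both calls were lost with equal spread (0.74 on day 1 and 0.52 on day 2) and without the 3 mice of low technical correlation (0.76 and 0.62), that of day 1 also with the second technical measurement alone (0.72, adjusted p = 0.0833), and that of day 2 also with quantile normalization (0.44, adjusted p = 0.114). Leaving out day 1 mouse 2 or 3 ended the day 1 call and day 2 mouse 3 the day 2 call, with changes of 0.73 to 0.92 and 0.56 to 0.78 over fits without 1 mouse. It was the only solute carrier probe called on both days in the fit reported here.

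Slc16a9, of the monocarboxylate transporter family, had the largest change of any called solute carrier probe, and only with 1 of its 2 probes. Probe 020N14 measured 2.33, 2.21, 2.62, 1.32 and 3.09 on day 2, against 1.40, 0.0015, 0.82, -0.07 and 2.18 in untreated mice. The untreated mice themselves spread from -0.07 to 2.18, and the groups overlapped through untreated mice 1 and 5, with a change of 1.45 ± 0.42 (2.72-fold, adjusted p = 0.0377). The call was lost in 8 of 15 other settings, and without the 3 mice of low technical correlation the change was 0.85 (adjusted p = 0.368). It was lost in 7 of 19 fits without 1 mouse (day 2 mouse 1, 2, 3 or 5, or untreated mouse 2, 3 or 4), with changes of 1.21 to 1.77. Probe 033M16 measured 0.82, 0.25, 0.73, 0.24 and 0.31 on day 2, against 0.43, 0.33, 0.35, 0.37 and 0.15 in untreated mice. The change of 0.14 ± 0.16 did not pass (adjusted p = 0.647). On day 1 both probes were higher than in untreated mice without passing, by 1.41 ± 0.45 (020N14, adjusted p = 0.111) and 0.44 ± 0.16 (033M16, adjusted p = 0.194). Slc16a1 (MCT1), the main lactate carrier of dividing cells, changed by -0.63 ± 0.37 on day 2 (adjusted p = 0.354), and 1 untreated mouse at 1.64 lay far above the other 4.

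Of 14 tested carriers of vitamins, lipids and lysosomal metabolites, Slc19a1 passed the F-test over the 4 conditions (adjusted p = 0.0293) and none of the pairwise comparisons. It encodes the reduced folate carrier, which brings folates and the antifolate methotrexate into cells. It measured -0.12, -0.29, -0.26, -0.23 and -0.47 on day 2, against -0.09, 0.36, 0.18, 0.29 and 0.05 in untreated mice. On day 1 the values were -0.15, -0.63, -0.43 and -0.21. All treated mice of both days lay below all untreated mice, by -0.43 ± 0.14 on day 2 (adjusted p = 0.0572) and -0.51 ± 0.15 on day 1 (adjusted p = 0.0674). On day 5 the mean was 0.17 ± 0.26, close to the 0.16 ± 0.18 of untreated mice (SD, n = 5 each).

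No carrier of inorganic ions passed among 9 tested probes. The one nearest to it was Slc4a10, a sodium-driven bicarbonate carrier best known from neurons, with 0.21 ± 0.09 on day 2 and -0.08 ± 0.12 in untreated mice (SD, n = 5 each, adjusted p = 0.0966). The 2 tested probes of the scaffold gene Slc9a3r2, which is no carrier, did not pass. Probe 034J21 lay at 0.30 to 0.46 on day 2 and at -0.11 to 0.34 in 4 untreated mice, while untreated mouse 2 was at -2.68, and its change of 0.85 ± 0.36 did not pass (adjusted p = 0.176).

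**Figure D4:**
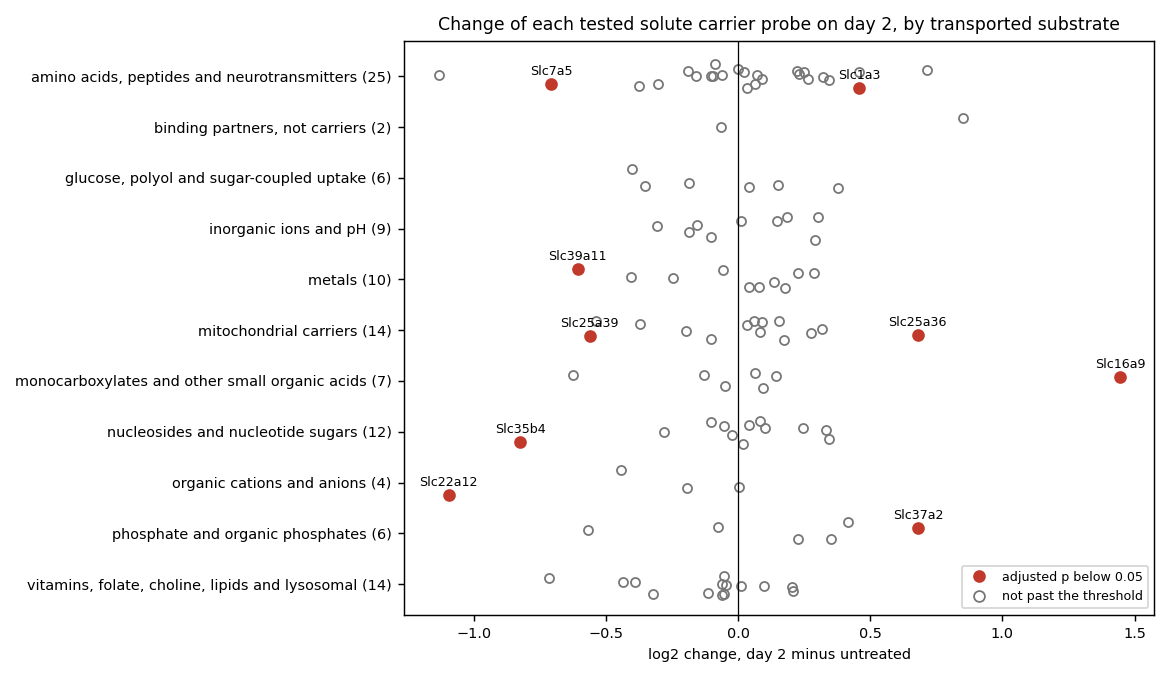
Log2 change on day 2 compared with untreated mice (horizontal axis) of each of the 109 tested solute carrier probes. Rows are classes of gene families named for transported substrate, with the number of tested probes in parentheses. Filled red points are the 9 probes past an adjusted p of 0.05 (limma), with their genes named, and open points the others. Points of each row lie on both sides of 0, and the red points are spread over 7 of the 11 rows.

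By transported substrate, the class medians on day 2 were -0.32 for organic ion carriers (4 probes) and 0.29 for phosphate carriers (6 probes), and those of the other 8 classes of carriers ran from -0.07 (sugars and polyols) to 0.07 (mitochondria), beside a median of 0.0070 over all tested probes.

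Lists of solute carriers known from particular cells held few called probes, to be read beside the background of 3.31% higher and 5% lower on day 2 and 0.938% higher on day 1. Of 12 carriers known from red cell precursors 6 were tested, and 1 fell on day 2 (Slc25a39), with a median change of -0.20 and a range of -1.13 (Slc6a9) to 0.38 (Slc2a1). Of 11 carriers known from macrophages and other myeloid cells 5 were tested, of which 2 rose on day 1 (Slc7a7 and Slc37a2) and 1 on day 2 (Slc37a2), with medians of 0.14 on day 1 and 0.09 on day 2. Of 15 carriers that supply nutrients to growing lymphocytes 9 were tested, and 1 fell on day 2 (Slc7a5), with a median of 0.02 and a range of -0.71 (Slc7a5) to 0.46 (Slc3a2). In the last list the glutamine carriers Slc1a5 and Slc38a1 differed between day 2 and untreated mice by 0.02 ± 0.23 and 0.35 ± 0.21 (adjusted p = 0.969 and 0.375). Slc2a1 and Slc29a1 belong to 2 of the lists. On day 5 no member of any of the 3 lists passed.

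Some markers of other cell types changed on day 1 and day 2 as well. Of 12 tested probes of red cell precursor markers, 8 fell on day 2 and 4 on day 1 (background of lower calls 5% and 1.39%), and the median change on day 2 was -1.12, with Alas2, which starts heme synthesis in red cells, at -3.94 ± 0.32 (adjusted p = 1.24e-07). The median of these markers in a mouse, each probe centred on its mean over all mice, lay between -1.05 and -0.16 on day 2, against 0.41 to 0.67 in untreated mice, and between 0.22 and 0.83 on day 5. Of 9 mitosis marker probes 6 fell on day 2 and 5 on day 1, against the same background, with medians per mouse of -1.29 to -0.17 on day 2, against 0.40 to 0.97 in untreated mice. Of 8 macrophage marker probes 1 rose on day 1 and 2 on day 2 (background of higher calls 0.938% and 3.31%), led by Siglec1, a receptor of spleen macrophages, at 1.24 ± 0.15 (adjusted p = 2.22e-05). Their medians per mouse lay between -0.31 and 0.86 on day 2, against -0.67 to -0.30 in untreated mice, and the ranges overlapped. The macrophage markers C1qb and Cd163 did not pass in any comparison. Of 5 platelet and megakaryocyte marker probes 1 (Itga2b, an integrin subunit of platelets) rose on day 2 and on day 5 (background of higher calls 3.31% and 0.0481%). The list's median change was 0.62 on day 2 and 1.11 on day 5. No probe of the B cell (6), T cell (4), stroma and endothelium (9) or neutrophil and early granule (6) lists passed against untreated mice on any day, and their medians on day 2 were 0.26, 0.38, 0.18 and -0.47. Between day 5 and day 2, 7 of the 12 red cell precursor probes and 6 of the 9 mitosis probes were higher on day 5. Of the 8 macrophage probes 1 was higher and 1 lower, while 2 B cell probes were lower and 1 neutrophil probe was higher. The background in this comparison was 3.8% higher and 1.5% lower. No probe of the T cell, stroma and endothelium, or platelet and megakaryocyte lists passed in it. The part of these markers in the changes of the solute carriers was not tested.

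Membrane transporters outside the family (ATP-driven pumps, water channels and organic anion carriers) had 34 tested probes, of which 3 passed on day 2 (background 8.31%), 1 on day 1 (background 2.33%) and none on day 5 (background 0.0721%), close to the shares of all tested probes. On day 2 the cholesterol exporter Abca1 (0.69 ± 0.20, adjusted p = 0.0373) and the organic anion pump Abcc3 (1.28 ± 0.25, adjusted p = 0.00235) rose, and Abcb10, a mitochondrial ATP-driven transporter of red cell precursors, fell (-1.44 ± 0.42, adjusted p = 0.0415). On day 5 Abca1 and Abcc3 were lower than on day 2, with differences of -0.71 ± 0.20 and -0.88 ± 0.25 (adjusted p = 0.0435 and 0.0437). No other of the 34 probes passed between these days, beside a background of 1.5% lower and 3.8% higher. On day 1 Atp1b1, a subunit of the sodium pump, rose by 1.22 ± 0.29 (adjusted p = 0.0284).

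In untreated mice the tested solute carrier probes furthest above the marrow pool were Slc16a9 probe 020N14 (0.87 ± 0.95) and the phosphate carrier Slc34a2 (0.58 ± 0.45, SD, n = 4), and those furthest below it, after Slc2a9, were the copper carrier Slc31a2 (-0.88 ± 0.46) and the glutamine carrier Slc1a5 (-0.81 ± 0.68, SD, n = 5 each). These are differences between spleen and marrow RNA measured without a dye swap, so a dye effect cannot be told apart from them.

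Of the 73 probes that were not tested, 13 had no value in any mouse, 38 had a value in 1 to 5 mice, and 22 in 6 to 15 mice. Several carriers that would bear on the cells of the spleen are among them: the band 3 anion exchanger of red cells Slc4a1, the urea carrier Slc14a1, the macrophage metal carrier Slc11a1 (NRAMP1), the lysosomal peptide carrier Slc15a3, the lactate exporter Slc16a3, the glucose carrier Slc2a3, the phosphate carrier Slc20a1 and the ADP/ATP carrier Slc25a5. Slc4a1 had a value in 1 day 5 mouse (0.99) and 1 untreated mouse (0.87). A value is missing where a spot was left out of the deposited table, by a filter that the sources do not describe. Whether a missing value reflects a low or a high level therefore cannot be told.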

How the data were processed

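Spleen RNA of 19 mice (Cy5) was hybridised with a marrow RNA pool (Cy3), 2 technical columns a mouse, per the labels, and the design text speaks of 2 replicates per array. Per the labels' protocols, extraction used the Qiagen RNeasy Midi kit and amplification the Amino Allyl MessageAmp II kit of Ambion. The authors deposited log2 ratios of spleen over pool. No source used here states the base, which was taken as 2. The deposited values are bounded at a size of 6, which 7 values reach, 63.2% are present, and the column medians lie between -0.0212 and 0.0132. A column held 5829 to 10407 values. Background correction, spot filter, normalization, software and slide or scan batch: not given in the sources used here. There was no dye swap.

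After averaging the 2 columns of a mouse, probes measured in 3 or more mice of all 4 groups were fitted together (limma 3.58.1, R 4.3.3, lmFit and eBayes on 4 group means, prior degrees of freedom 5.52). P-values are two-sided, adjusted by Benjamini-Hochberg over 8319 probes, with a threshold of 0.05, and measure the spread between mice, which the design text calls independently harvested. Changes are given with the moderated standard error. The number of mice limits the precision. Gene names come from a platform annotation table, and no name of a solute carrier changed against RefSeq. Members, lists and motifs were chosen with earlier results of these data known. Named were all probes past the threshold, the smallest F-test p of each substrate class, all tested members of the 3 solute carrier lists, and genes whose probes differ. The steps were tested on simulated data. Mice of the same number were not paired in the fit, because the labels do not state a pairing. The deviations of 27 such pairs correlated at -0.249 to 0.325, with a mean of -0.0047. Alternatives covered scaling, technical columns, missing values, variance trend, array weights, probe averaging, replicate block, samples fitted, single mice, low technical correlation and the threshold. Promoters are RefSeq sequences. Python 3.11.15 with matplotlib 3.10.9 drew the figures.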

Additional observations from a re-analysis of the deposited data

Results flagged for a closer look

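In 9 of 109 groups of 4 or 5 mice examined for the named probes, 1 mouse lay far from the others, and chance gives about 1 in 20. These were the highest untreated values of Slc16a1 (1.64, mouse 4) and Slc25a37 (0.15, mouse 4), and the lowest untreated values of Slc1a5 (-2.01, mouse 2), Slc7a5 (-0.72, mouse 3) and Slc9a3r2 probe 034J21 (-2.68, mouse 2). On day 1 they were the highest values of Slc35b4 (-0.28, mouse 3) and Slc7a1 (0.35, mouse 1) and the lowest of Slc9a3r2 probe 034J21 (0.30, mouse 3), and on day 5 the highest of Slc7a2 (-0.067, mouse 5). Untreated mice 2 and 4 and day 5 mouse 5 are the 3 mice of low technical correlation.

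Changes on day 5 differed from those on day 2, by a direct test in the same limma fit, for Slc22a12 (1.17), Slc39a11 probe 036G01 (0.91), Slc2a9 (0.78), Slc35b4 (0.66) and Slc1a3 (-0.48).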

How the results depend on the processing

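No change of a called solute carrier probe turned its direction in any setting. Over the settings tried for single called probes, leave-outs included, the call was kept 448 times and lost 92 times. These counts include leave-outs of mice outside the 2 groups compared, which cannot move the change itself. On day 1, 2 probes were called, and 0 with equal spread, with the second technical column alone, without the 3 mice of low technical correlation or at a threshold of 0.01, 1 with a replicate block or with only the groups compared, and 5 (2 higher, 3 lower) with the mouse as a random effect. On day 2, 9 were called, and 2 with quantile normalization or equal spread, 5 with only the groups compared, 3 without the 3 mice and 3 at 0.01. Between day 2 and day 1, array weights gave 1, lower, in place of 0. Between day 5 and day 2, 5 were called, and 2 with quantile normalization or equal spread, 10 with the mouse as a random effect, 9 with values on all columns (53 probes), 10 with array weights and 3 at 0.01. The F-test called 6, and 3 with quantile normalization or equal spread, 12 with the random effect and 11 with array weights. Leaving out each mouse gave 0 (without day 1 mouse 2 or 3) to 3 (without untreated mouse 5) on day 1, 4 (without day 2 mouse 5) to 10 on day 2, 4 (without day 2 mouse 5) to 9 (without day 2 mouse 4) between day 5 and day 2, 4 to 10 (the same mice) in the F-test, and 0 in the other 2 comparisons. With the replicate block, day 2 gave 6, the F-test 5, day 5 against day 2 5 and the other 2 comparisons 0. The numbers are not stated to pair mice. The cause of these differences was not tested. On day 5 no setting called a solute carrier probe. With 4 or 5 mice a group and a median standard error near 0.17, small changes were not detectable.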
